A study of Homo sapiens with 12 samples.

Results

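The genes described here are the protein-coding genes with a named array row whose symbol begins like a collagen, laminin, integrin or ADAMTS gene, and 9 of the 14599 genes measured met that rule. They were COL26A1, ADAMTSL1, ADAMTSL2, ADAMTSL3, ADAMTSL4, ADAMTSL5, ITGB1BP1, ITGB1BP2 and ITGB3BP, each with 1 row. The families the rule was written for are mostly absent from the named rows. Laminins, integrin subunits and ADAMTS proteases contributed 0 genes, and collagens contributed 1. Of 110 protein-coding RefSeq genes with these prefixes, 101 had no row linked to them and were not analysed here. Among all 20052 protein-coding RefSeq genes, 58.5% had a named row. The 9 genes are therefore called by what they are, namely 1 collagen, 5 ADAMTS-like genes and 3 genes whose products bind integrin tails or carry that name.

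Expression was measured on 12 single-colour arrays of Hs695T, a human melanoma line, 24 h after treatment, with 3 arrays in each of 4 groups. Vehicle cells received DMSO. MAPKi cells received 100 nM dabrafenib, a BRAF inhibitor, with 10 nM trametinib, a MEK inhibitor. HDACi cells received 1 µM entinostat, which blocks class I histone deacetylases. Combination cells received all 3 drugs at the same doses. All arrays came from this 1 line, and the titles call them biological replicates where the series description speaks of technical triplicates, so each p-value covers only the spread between arrays.

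Collagens and fibrillins are secreted scaffolds, and integrins are the receptors that tie them to the cytoskeleton. ADAMTS-like proteins share the ancillary domains of ADAMTS proteases but lack the protease domain, and several bind fibrillin microfibrils. ICAP-1, the product of ITGB1BP1, binds the cytoplasmic tail of integrin β1 and keeps it from being activated by talin. Melusin, the product of ITGB1BP2, binds the same tail and is known mainly from striated muscle. ITGB3BP was named for binding integrin β3, but its product is also the centromere protein CENP-R. In melanoma, matrix and its receptors are known for their part in invasion and in tolerance of MAPK inhibitors.

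A change here is a difference of log2 intensity ± the limma standard error with 3 arrays per group, and a gene rose or fell where its adjusted p (limma, Benjamini-Hochberg over 14599 genes) was under 0.05. Array-wide signal was lower with MAPKi and with the combination than in vehicle. HDACi arrays overlapped vehicle in median intensity but lay below it in mean intensity (149.7 to 158.5 against 179.4 to 203.6). Median intensity per array was 50.64 to 57.59 in vehicle, 37.46 to 40.76 with MAPKi, 48.33 to 51.56 with HDACi and 33.28 to 39.88 with the combination. Over all genes the median change in log2 intensity was -0.48 with MAPKi, -0.20 with HDACi and -0.72 with the combination. Quantile normalization of the same log2 values left medians of 0.01, -0.04 and -0.03, and changes on that scale stand beside the deposited ones. In RNA from whole cultures, fewer cells of a kind and less RNA per cell cannot be told apart. Among 7 melanoma markers with a row, S100B (9.74 to 11.53), SOX10 (8.71 to 10.08), PMEL (5.40 to 7.27) and MITF (4.94 to 6.32) were above the dimmest 40% of genes on average, and MLANA, TYR and TYRP1 were within it. All 4 keratinocyte, both leukocyte and 2 of 3 fibroblast markers lay in the dimmest 40% as well, and of 2 endothelial markers VWF did and KDR (5.47 to 9.44) did not.

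The promoters of ITGB3BP, ITGB1BP1 and ADAMTSL3 are shown because these are the 3 genes with a difference between groups on both scales. The sequences are RefSeq's on GRCh38.p14, before the annotated start, and capitals mark matches to the motifs searched. ITGB3BP lies at chr1:63523226-63523475 on the minus strand, ITGB1BP1 at chr2:9423570-9423653 on the minus strand and ADAMTSL3 at chr15:83653873-83654122 on the plus strand. The ITGB1BP1 stretch has 84 bases because it is the gap between that gene and CPSF3, which starts from the opposite strand.
ITGB3BP: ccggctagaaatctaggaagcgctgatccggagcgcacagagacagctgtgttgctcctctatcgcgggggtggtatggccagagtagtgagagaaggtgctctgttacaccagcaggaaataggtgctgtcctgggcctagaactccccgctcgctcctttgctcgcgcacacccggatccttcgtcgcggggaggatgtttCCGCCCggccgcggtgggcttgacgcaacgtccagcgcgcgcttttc
ITGB1BP1: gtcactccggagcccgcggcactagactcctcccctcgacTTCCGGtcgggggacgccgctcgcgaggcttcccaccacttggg
ADAMTSL3: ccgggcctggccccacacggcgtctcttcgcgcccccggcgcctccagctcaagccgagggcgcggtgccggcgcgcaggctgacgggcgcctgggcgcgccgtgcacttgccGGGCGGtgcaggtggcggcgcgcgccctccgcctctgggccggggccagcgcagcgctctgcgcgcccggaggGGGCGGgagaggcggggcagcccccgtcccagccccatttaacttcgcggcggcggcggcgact
Matches were sought on both strands to TGANTCA for AP-1, CCGGAA for ETS factors, CATGTG for an E-box and GGGCGG for SP1. The ITGB1BP1 match is to the ETS letters, and those of ITGB3BP and ADAMTSL3 are to the SP1 letters. In windows of 300 bases around the start, the ETS letters stood in 1 of 9 members (ITGB1BP1) and 17.6% of 27305 promoters. SP1 letters stood in 5 of 9 members and 44.6% of promoters. E-box letters stood in 1 member (ADAMTSL2) and 11.2% of promoters, and AP-1 letters in 0 members and 7.76% of promoters. A match describes letters and shows no binding.

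Over the 9 genes, MAPKi lowered 5 and raised 0, where 66.2% of all genes fell and 2.97% rose. HDACi lowered 2 and raised 0, beside 37.2% and 10.4% of all genes. The combination lowered 6 and raised 0, beside 74.3% and 4.38%. At an unadjusted p under 0.05 limma also gave 0 rises in each of these 3 comparisons. The members' shares that fell were thus no larger than those of the array as a whole. Their median change was -0.34 with MAPKi, -0.04 with HDACi and -0.56 with the combination, against -0.48, -0.20 and -0.72 over all genes. After quantile normalization MAPKi raised 1 and lowered 0, HDACi changed 0, and the combination raised 1 and lowered 1. Unadjusted, those counts were 2 and 0, 0 and 0, and 2 and 2. Among all genes on that scale, 15.1% rose and 13.9% fell with MAPKi, 18.5% and 21.1% with HDACi, and 22.1% and 24.2% with the combination. An F-test over the 4 groups called 7 members on the deposited scale, where 83.3% of all genes were called, and 3 after quantile normalization, where 59.2% were. Those 3 were ITGB3BP, ITGB1BP1 and ADAMTSL3. Counted without a test, all 3 treated arrays lay below all 3 vehicle arrays in 6 members with MAPKi, 2 with HDACi and 6 with the combination, beside 67.8%, 43.2% and 72.4% of all genes, and above them in 0 members, beside 3.34%, 12.2% and 4.42%. Combination arrays lay below all MAPKi arrays in 3 members and above them in 1, beside 44% and 9.99%, and below all HDACi arrays in 5 and above them in 0, beside 70.9% and 0.938%.

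**Figure D1:**
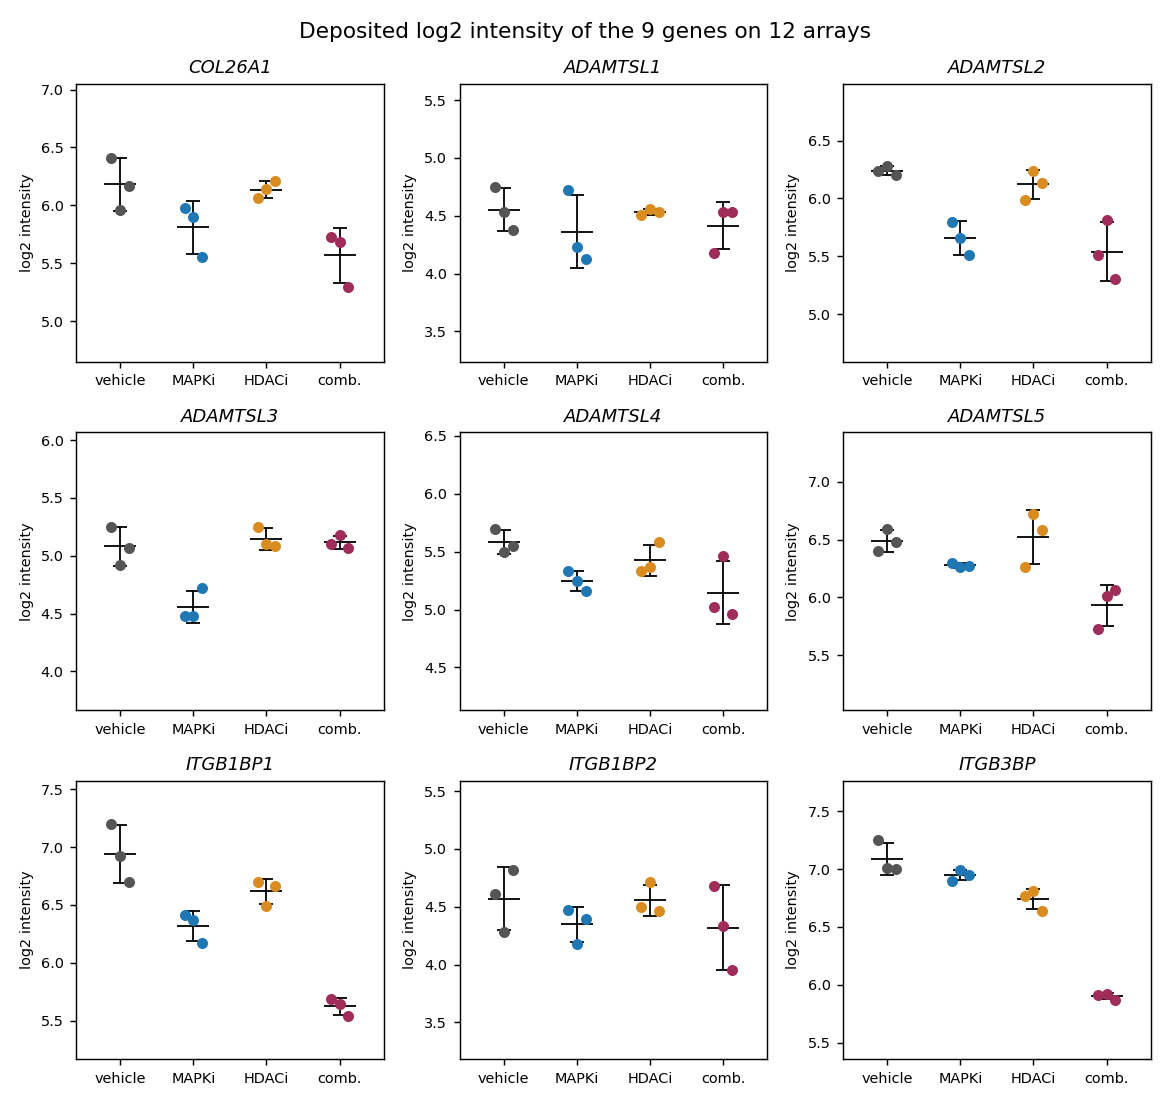
Deposited log2 intensity (vertical axis, all panels spanning the same number of log2 units) of the 9 genes in vehicle, MAPKi, HDACi and combination (comb.) arrays. Points are arrays, bars are the mean and SD of 3 arrays. The combination arrays of ITGB3BP (5.87 to 5.92) and ITGB1BP1 (5.54 to 5.69) sit below all other arrays, and the MAPKi arrays of ADAMTSL3 (4.48 to 4.72) sit below all others.

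On the deposited scale ITGB3BP was low with all 3 drugs together and changed less with either treatment alone. Its log2 intensity was 7.25, 7.01 and 7.0 in the vehicle arrays and 6.90, 6.99 and 6.95 with MAPKi. It was 6.77, 6.81 and 6.64 with HDACi and 5.91, 5.92 and 5.87 with the combination. The combination arrays lay far below every other array, and the other 3 groups were apart from each other by little, with vehicle and MAPKi all but meeting. Against vehicle, the combination lowered ITGB3BP 2.28-fold (-1.19 ± 0.10, adjusted p = 1.7e-08, limma). MAPKi alone gave -0.14 ± 0.10 (adjusted p = 0.22, 95% interval -0.36 to 0.07). HDACi alone gave -0.35 ± 0.10 (adjusted p = 0.009), but not without HDACi replicate 3 (-0.30, adjusted p = 0.051). All genes were also cut into 10 bins by mean log2 intensity. In the bin of ITGB3BP the median change was -0.67 with MAPKi, -0.42 with HDACi and -1.14 with the combination. The -1.19 of ITGB3BP with the combination lay near that median, and its -0.14 with MAPKi lay above it.

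On the deposited scale the fall of ITGB3BP exceeded the sum of the single changes. That sum was -0.49 and the combined change -1.19, a departure of -0.69 ± 0.14 (adjusted p = 0.0054, limma). The departure was -0.70 ± 0.12 after quantile normalization (adjusted p = 0.0021). There the single changes summed to a rise of 0.49, and the combined change of -0.21 did not pass (adjusted p = 0.056). The deposited-scale departure passed without each of the 12 arrays in turn, at -0.78 to -0.65. Among all genes 4.84% departed downward on the deposited scale and 6.26% after quantile normalization, and among the members 1 of 9 did on each. Upward departures numbered 0 of 9 and 1 of 9 (ADAMTSL3), beside 3.16% and 6.21% of all genes; at an unadjusted p under 0.05 both were 1. The 4 group means ran from vehicle (7.09) through MAPKi (6.95) and HDACi (6.74) to the combination (5.90). In that order, vehicle and MAPKi did not pass on the deposited scale, nor did MAPKi and HDACi (0.21 ± 0.10, adjusted p = 0.11). The arrays of neither pair overlapped. HDACi and the combination did pass (-0.84 ± 0.10, adjusted p = 2.5e-06), though not after quantile normalization (-0.18 ± 0.08, adjusted p = 0.16). On the quantile scale MAPKi passed above vehicle (0.52 ± 0.08, adjusted p = 0.00041) and above HDACi (0.56 ± 0.08, adjusted p = 0.00013).

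Scaling moved the place of vehicle and MAPKi. After quantile normalization the ITGB3BP means were 7.12 with MAPKi, 6.59 in vehicle, 6.56 with HDACi and 6.38 with the combination. On that scale MAPKi raised ITGB3BP (0.52 ± 0.08, adjusted p = 0.00041), and the combination against vehicle did not pass (-0.21 ± 0.08, adjusted p = 0.056). With array medians subtracted instead, the combination did pass below vehicle (-0.39 ± 0.08, adjusted p = 0.0011, limma) and below HDACi (-0.24 ± 0.08, adjusted p = 0.032). Lower signal in the combination than in MAPKi held on the deposited scale, at -1.04 ± 0.10 (adjusted p = 5.4e-07). It also held after quantile normalization, at -0.74 ± 0.08 (adjusted p = 1.7e-05).

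EFCAB7 overlaps ITGB3BP on the opposite strand in RefSeq, and was looked up after the ITGB3BP values were seen. Its log2 intensity was 6.50, 6.35 and 6.18 in vehicle, 7.07, 7.03 and 6.98 with MAPKi, 6.11, 5.84 and 6.0 with HDACi and 5.32, 5.54 and 5.43 with the combination. On the deposited scale it was thus highest with MAPKi and lowest with the combination, and no group overlapped another. After quantile normalization MAPKi stayed above vehicle (1.23 ± 0.10, adjusted p = 9e-07, limma). HDACi and the combination against vehicle did not pass there (-0.17 ± 0.10 and -0.18 ± 0.10, adjusted p = 0.21 and 0.15). Nor did the combination against HDACi (-0.02 ± 0.10, adjusted p = 0.93). The departure of EFCAB7 from the sum was -1.24 ± 0.16 (adjusted p = 0.00013, quantile -1.25). Whether signal of one strand reached the other gene's row was not tested.

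ITGB1BP1, which encodes the integrin β1 tail-binding protein ICAP-1, was lowest with the combination too. It read 7.20, 6.92 and 6.70 in vehicle and 6.41, 6.37 and 6.17 with MAPKi. It read 6.70, 6.49 and 6.66 with HDACi and 5.69, 5.64 and 5.54 with the combination. All 4 groups were apart from each other, although the lowest vehicle and highest HDACi arrays both rounded to 6.70. Against vehicle it fell 2.49-fold with the combination (-1.32 ± 0.13, adjusted p = 6.9e-08) and 1.54-fold with MAPKi (-0.63 ± 0.13, adjusted p = 0.00038). In the bin of ITGB1BP1 the median change was -0.59 with MAPKi, -0.34 with HDACi and -0.94 with the combination.

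The HDACi difference of ITGB1BP1 was -0.32 ± 0.13 (adjusted p = 0.045) and hung on single arrays. It was lost without HDACi replicate 1 (-0.36), 2 (-0.26) or 3 (-0.35), without vehicle replicate 1 (-0.19) or 2 (-0.33), and, at an unmoved -0.32, without MAPKi replicate 1 or 2 or combination replicate 1. In order of level the groups ran vehicle (6.94), HDACi (6.62), MAPKi (6.31) and combination (5.62), and MAPKi against HDACi did not pass (-0.30 ± 0.13, adjusted p = 0.059). At an unmoved -0.30 that last comparison passed without vehicle replicate 1 or 3, with the replicate block (adjusted p = 0.041), with trended variance (0.048), with only the arrays compared (0.038) and without dim genes (0.029), and after quantile normalization it was 0.05 (adjusted p = 0.77), so its call is not settled.

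After quantile normalization ITGB1BP1 remained lower with the combination than in each other group. The differences were -0.43 ± 0.11 from vehicle (adjusted p = 0.005), -0.45 ± 0.11 from MAPKi (adjusted p = 0.0045) and -0.40 ± 0.11 from HDACi (adjusted p = 0.017). The single treatments did not pass on that scale, at 0.01 for MAPKi, so of opposite sign, and -0.03 for HDACi. Its departure from the sum did not pass (-0.37 ± 0.18, adjusted p = 0.25, quantile -0.41 with adjusted p = 0.1), with a 95% interval of -0.75 to 0.01.

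ITGB1BP2, which encodes melusin, was dim and passed in 0 of the 6 planned comparisons on either scale (limma; 0 also at an unadjusted p under 0.05). Its log2 intensity ranged from 4.28 to 4.82 in vehicle, 4.18 to 4.47 with MAPKi, 4.46 to 4.71 with HDACi and 3.95 to 4.68 with the combination. These ranges overlapped throughout. The combination against vehicle was -0.25 ± 0.17 (adjusted p = 0.19, 95% interval -0.61 to 0.11), and passed without combination replicate 1 (-0.43, adjusted p = 0.029). Without that array the combination was also below HDACi (-0.42, adjusted p = 0.038, against -0.24 and 0.22 with it).

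**Figure D2:**
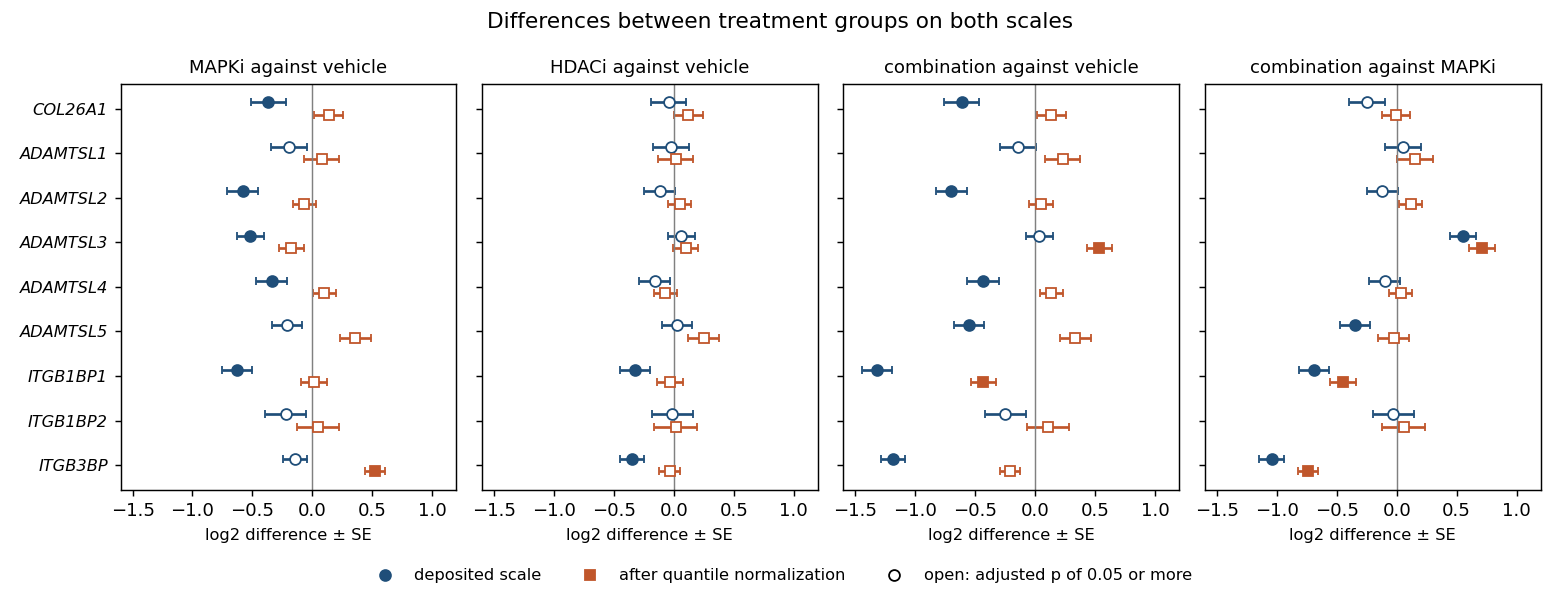
Log2 differences ± limma standard error (horizontal axes) of the 9 genes in 4 comparisons, with circles on the deposited scale and squares after quantile normalization, filled where the adjusted p was under 0.05. Most circles lie left of 0 for MAPKi and the combination against vehicle and most squares near 0, whereas ITGB3BP, ITGB1BP1 and ADAMTSL3 keep filled symbols of 1 sign for the combination against MAPKi.

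ADAMTSL3 ran the other way. It was low on the deposited scale with MAPKi alone, and level there with vehicle once entinostat was added. It read 5.25, 4.92 and 5.07 in vehicle, 4.48, 4.48 and 4.72 with MAPKi, 5.25, 5.10 and 5.08 with HDACi and 5.10, 5.18 and 5.07 with the combination. The MAPKi arrays lay below all 9 others, and the other 3 groups overlapped. MAPKi lowered it 1.43-fold (-0.52 ± 0.11, adjusted p = 0.0007), and the combination stood 1.47-fold above MAPKi (0.55 ± 0.11, adjusted p = 0.00059). It was the only member higher in the combination than in MAPKi, where 8.68% of all genes were higher, while 3 members were lower and 40.6% of all genes were. After quantile normalization 1 member was higher and 2 lower, beside 19.9% and 23.5%.

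The combination against vehicle was 0.03 ± 0.11 for ADAMTSL3 (adjusted p = 0.78, 95% interval -0.20 to 0.27). Over all genes in the bin of ADAMTSL3 the median deposited-scale change was -0.33 with MAPKi and -0.45 with the combination. After quantile normalization the gain over MAPKi was 0.71 ± 0.11 (adjusted p = 0.00014) and the fall with MAPKi did not pass (-0.18 ± 0.11, adjusted p = 0.26). On that scale ADAMTSL3 rose with the combination against vehicle (0.54 ± 0.11, adjusted p = 0.0011). Its departure from the sum was 0.49 ± 0.16 (adjusted p = 0.072), and 0.61 ± 0.15 after quantile normalization (adjusted p = 0.019). Without MAPKi replicate 3 the departure passed on the deposited scale as well (0.57, adjusted p = 0.038), as it did without vehicle replicate 2 (0.57, adjusted p = 0.042). ADAMTSL3 lies in the dimmest 40% of genes by mean, as do ADAMTSL1, ADAMTSL4 and ITGB1BP2.

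ADAMTSL2 and ADAMTSL4, whose products bind fibrillin-1, were lower with MAPKi and with the combination on the deposited scale and in neither after quantile normalization. ADAMTSL2 read 6.24, 6.28 and 6.20 in vehicle, 5.80, 5.66 and 5.51 with MAPKi, 5.99, 6.24 and 6.13 with HDACi and 5.51, 5.81 and 5.30 with the combination. Both MAPKi-treated groups lay below both others. ADAMTSL2 fell by 0.58 ± 0.13 with MAPKi (adjusted p = 0.00086, quantile -0.07) and by 0.70 ± 0.13 with the combination (adjusted p = 0.00011, quantile 0.05, so of opposite sign). Its combined change departed from the sum of the single ones by -0.002 ± 0.18 on the deposited scale (95% interval -0.39 to 0.39). In the bin of ADAMTSL2 the median deposited-scale change was -0.50 with MAPKi and -0.72 with the combination.

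ADAMTSL4 read 5.70, 5.50 and 5.55 in vehicle, 5.33, 5.25 and 5.16 with MAPKi, 5.33, 5.37 and 5.58 with HDACi and 5.02, 5.46 and 4.96 with the combination. Vehicle was apart from MAPKi and from the combination, and HDACi overlapped both vehicle and the combination. The changes were -0.34 ± 0.13 with MAPKi (adjusted p = 0.031, quantile 0.10) and -0.44 ± 0.13 with the combination (adjusted p = 0.0062, quantile 0.13), both of opposite sign after quantile normalization. The MAPKi call was lost without MAPKi replicate 2 (-0.34) or 3 (-0.29) and without vehicle replicate 1 (-0.28) or 3 (-0.35). Against HDACi, the combination passed only without combination replicate 2 (-0.44, adjusted p = 0.0036, against -0.28 and 0.067 with it). In the bin of ADAMTSL4 the median deposited-scale change was -0.44 with MAPKi and -0.58 with the combination.

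ADAMTSL5, a secreted member of the same family that also binds fibrillin, was lower with the combination than in the other 3 groups. It read 6.40, 6.59 and 6.48 in vehicle, 6.30, 6.26 and 6.27 with MAPKi, 6.26, 6.72 and 6.58 with HDACi and 5.73, 6.01 and 6.06 with the combination. The combination arrays were below all others. Against vehicle it fell by 0.55 ± 0.13 (adjusted p = 0.00075), whereas MAPKi gave -0.21 ± 0.13 (adjusted p = 0.15) and HDACi 0.03 ± 0.13 (adjusted p = 0.87). After quantile normalization the combination and MAPKi changes were of opposite sign (0.33 and 0.36) without passing. Against MAPKi the combination gave -0.35 ± 0.13 (adjusted p = 0.03, quantile -0.02), a call lost without MAPKi replicate 1 (-0.34), 2 (-0.36) or 3 (-0.35) or combination replicate 1 (-0.25). ADAMTSL5 shares the bin of ITGB1BP1, with median deposited-scale changes of -0.59 with MAPKi and -0.94 with the combination. ADAMTSL1, the founding ADAMTS-like gene, passed in 0 of the 6 planned comparisons on either scale (limma; 0 also unadjusted). Its arrays ranged from 4.38 to 4.75 in vehicle, 4.13 to 4.72 with MAPKi, 4.51 to 4.56 with HDACi and 4.18 to 4.53 with the combination, all overlapping vehicle. MAPKi against vehicle was -0.19 ± 0.15 (95% interval -0.51 to 0.13), and passed without MAPKi replicate 1 (-0.37, adjusted p = 0.027).

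COL26A1, the collagen of the group, encodes a secreted protein with short collagenous stretches. It read 6.41, 5.96 and 6.17 in vehicle, 5.98, 5.90 and 5.55 with MAPKi, 6.06, 6.14 and 6.21 with HDACi and 5.73, 5.68 and 5.29 with the combination. The combination arrays lay below all vehicle and HDACi arrays, and MAPKi overlapped vehicle in 1 array. It fell by 0.61 ± 0.15 with the combination (adjusted p = 0.0013, quantile 0.13, so of opposite sign) and by 0.37 ± 0.15 with MAPKi (adjusted p = 0.037, quantile 0.14, likewise). The MAPKi call was lost without MAPKi replicate 3 (-0.24) or vehicle replicate 1 (-0.25) or 3 (-0.37). HDACi gave -0.04 ± 0.15 (95% interval -0.36 to 0.27). COL26A1 shares the bin of ADAMTSL2, with median deposited-scale changes of -0.50 with MAPKi, -0.21 with HDACi and -0.72 with the combination.

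Compared with HDACi alone, the combination lowered 5 of 9 members and raised 0 (0 also at an unadjusted p under 0.05, limma), beside 72.6% and 0.644% of all genes. The 5 were ITGB1BP1 (-0.99 ± 0.13), ITGB3BP (-0.84 ± 0.10), ADAMTSL5 (-0.58 ± 0.13), ADAMTSL2 (-0.58 ± 0.13) and COL26A1 (-0.57 ± 0.15). After quantile normalization ITGB1BP1 was lower and ADAMTSL3 higher (0.44 ± 0.11, adjusted p = 0.011), where 11.6% of all genes were lower and 11.4% higher. These comparisons share the combination arrays with those above. MAPKi against HDACi, compared only to order the groups, lowered 2 members (ADAMTSL2 and ADAMTSL3) and raised 0 (0 also unadjusted, limma), beside 39.4% and 7.25% of all genes. After quantile normalization it raised 1 (ITGB3BP) and lowered 0 (1 unadjusted), beside 24.6% and 20.4%.

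**Figure D3:**
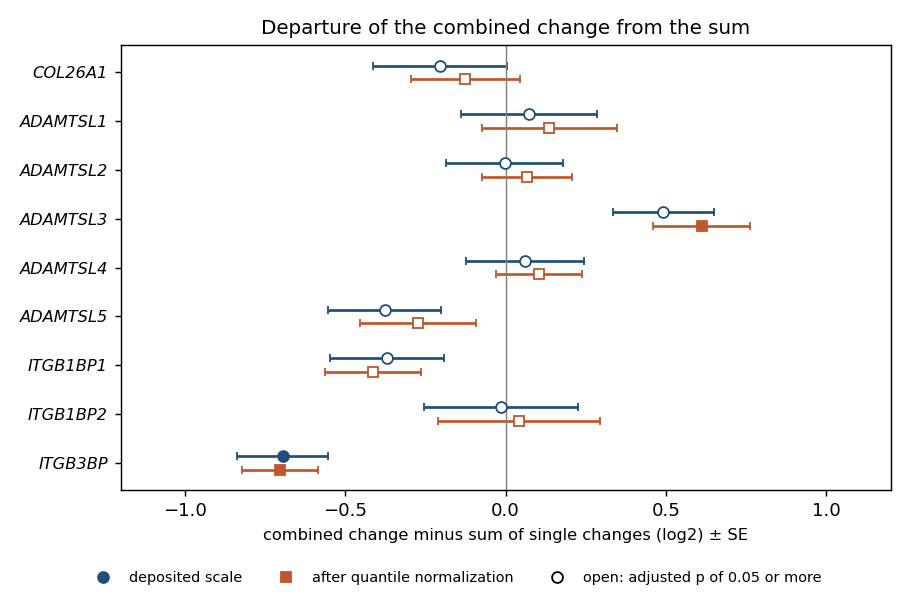
Combined change minus the sum of the MAPKi and HDACi changes (horizontal axis, log2 ± limma standard error) for the 9 genes, with circles on the deposited scale, squares after quantile normalization and filled symbols where the adjusted p was under 0.05. ITGB3BP lies at -0.69 and -0.70, ADAMTSL3 at 0.49 and 0.61, and no other gene has a filled symbol.

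These 4 lists of matrix and adhesion genes outside the rule give the setting, with the pair of widest range named from each. Their counts stand beside the 66.2% of all genes that fell with MAPKi, 37.2% with HDACi and 74.3% with the combination on the deposited scale. The shares that rose were 2.97%, 10.4% and 4.38%. After quantile normalization 13.9%, 21.1% and 24.2% of all genes fell and 15.1%, 18.5% and 22.1% rose, in the same order. HDACi counts on that scale were 1 lower and 4 higher, 3 and 10, 5 and 5, and 3 and 5 in the lists as ordered below. Nothing particular to a list is read from these counts. Of 14 collagen processing genes with a row, 13 fell with MAPKi and 14 with the combination on the deposited scale (median -0.80 and -0.82), and 7 fell and 1 rose with HDACi. On the quantile scale the counts were 4 lower and 2 higher with MAPKi, and 1 lower and 7 higher with the combination (median -0.10 and 0.22, the latter of opposite sign). P3H2, a collagen prolyl 3-hydroxylase, went from 8.22 ± 0.08 (SD, n = 3) in vehicle to 6.01 ± 0.21 with MAPKi, 8.84 ± 0.11 with HDACi and 7.25 ± 0.12 with the combination, so that the combination was below vehicle on the deposited scale (-0.97 ± 0.12) and above it after quantile normalization (0.33 ± 0.10). LOXL3, a lysyl oxidase that cross-links collagen, fell by 1.77 ± 0.11 with MAPKi and by 1.80 ± 0.11 with the combination (quantile -1.08 and -0.73).

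Among 28 matrix glycoproteins and proteoglycans, 20 fell and 2 rose with MAPKi, 9 fell and 7 rose with HDACi, and 18 fell and 3 rose with the combination (MAPKi and combination medians -0.44 and -0.45, quantile counts 4 lower and 7 higher, then 3 lower and 14 higher). MATN2, a matrilin, rose by 2.61 ± 0.12 with MAPKi and by 0.63 ± 0.12 with the combination (quantile 3.09 and 1.47). THBS2, which encodes thrombospondin-2, was lower in both (-2.19 ± 0.10 and -2.18 ± 0.10, quantile -1.55 and -1.16). The fibrillin genes were added after the values were seen, since ADAMTS-like proteins bind their products. FBN1 read 6.0, 6.09 and 5.92 in vehicle and 4.81, 5.16 and 5.16 with MAPKi, a fall of 0.96 ± 0.12 (adjusted p = 4.1e-06, quantile -0.48). FBN2 read 6.07, 6.0 and 5.83 in vehicle and 7.44, 7.62 and 7.46 with HDACi, a rise of 1.54 ± 0.10 (adjusted p = 1.4e-08, quantile 1.65), and it was above vehicle with the combination too (0.69 ± 0.10, quantile 1.62). Neither ADAMTSL2, ADAMTSL4 nor ADAMTSL5 passed with HDACi.

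Of 19 focal adhesion genes, 18 fell with MAPKi, 10 fell and 3 rose with HDACi, and 17 fell with the combination (MAPKi and combination medians -1.05 and -1.33, quantile 10 lower and 2 higher, then 8 lower and 4 higher). PXN, which encodes the adaptor paxillin, was lower with MAPKi (-2.0 ± 0.10), HDACi (-1.34 ± 0.10) and the combination (-2.53 ± 0.10, quantile -1.24, -0.97 and -1.28). TGFB1I1, its relative Hic-5, was lower in all 3 (-1.496 ± 0.12, -1.90 ± 0.12 and -2.29 ± 0.12, quantile -0.69, -1.49 and -1.01). Of 16 metalloproteinase and inhibitor genes, 9 fell and 0 rose with MAPKi (0 also unadjusted), 4 fell and 3 rose with HDACi, and 10 fell and 1 rose with the combination (MAPKi and combination after quantile normalization 3 lower and 1 higher, then 4 lower and 7 higher). MMP16, a membrane-bound metalloproteinase, fell by 2.91 ± 0.11 with the combination (quantile -1.68), and the collagenase gene MMP13, dim in vehicle at 3.28, rose by 3.10 ± 0.21 with HDACi but by 0.60 ± 0.21 with the combination (quantile 2.97 and 0.79).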

How the data were processed

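RNA of 12 Hs695T samples was measured on 1-colour Affymetrix arrays. The authors deposited linear probe set intensity values made with RMA in Transcriptome Analysis Console, per the submitters' processing notes. The sources used here do not give the scaling between arrays, the build or versions. ERCC spike-in controls had been added, but the row names do not identify them, so they were not used to scale the arrays. Log2 was taken of the 29592 rows. A platform table linked 14783 rows to 1 gene symbol, 0 to several and 14809 to none, giving 14599 genes after the brightest row was kept for 169 genes. RefSeq (GRCh38.p14) gave biotypes and matched every named row.

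limma 3.58.1 in R 4.3.3 fitted a mean per group over all 12 arrays (8 residual degrees of freedom). Members and lists were chosen with earlier results of these data known. Named besides all members are the 2 genes of widest range per list. MAPKi against HDACi was added later to order the groups. The fit was checked on data simulated for MAPKi against vehicle. There it called 34% of genes given a true log2 change of 0.5 and 96% of those given 1. Few genes were changed in the simulation, unlike on these arrays, so the shares do not carry over directly. Alternatives were quantile normalization, array medians subtracted, no dim genes, trended variance, mean rows, only compared arrays, a replicate block and each array left out. Array number limits precision. Same-numbered arrays deviated together at r over 0.1 in 2 of 18 pairs, with a median r of 0.03 against -0.01 for other pairs. For 9 of 12 arrays the closest deviations were those of their own number. Arrays were not paired in the main fit, and pairing by number was tried as the replicate block. Figures used matplotlib 3.10.9.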

Additional observations from a re-analysis of the deposited data

Results flagged for a closer look

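The following genes have a combined change that differed from the sum of the single-drug changes, tested as the interaction term in limma over all genes. Among the members this was ITGB3BP (-0.69 ± 0.14, adjusted p = 0.0054), lower than the sum, in all 12 fits that left out 1 array. Of the genes named for comparison, EFCAB7 was also lower than the sum (-1.24 ± 0.16, adjusted p = 0.00013), as were MATN2 (-1.98 ± 0.16, adjusted p = 2.4e-06) and MMP13 (-2.13 ± 0.30, adjusted p = 0.00029). Higher than the sum were P3H2 (0.62 ± 0.17, adjusted p = 0.029), LOXL3 (1.04 ± 0.16, adjusted p = 0.00053), PXN (0.81 ± 0.15, adjusted p = 0.0021) and TGFB1I1 (1.10 ± 0.17, adjusted p = 0.00063). These 8 signs and calls were the same after quantile normalization. Among all genes 4.84% departed downward and 3.16% upward on the deposited scale, and 6.26% and 6.21% after quantile normalization. The comparison genes were named for their wide range of group means or looked up after the values were seen. No rate of departure is therefore read from them.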

How the results depend on the processing

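Scaling decided most calls. After quantile normalization 5 members lower with MAPKi became 0 (1 higher), 2 lower with HDACi became 0, 6 lower with the combination became 1 (1 higher), 5 lower than in HDACi became 1 (1 higher), 1 departed upward in place of 0, and the F-test called 3 in place of 7. With array medians subtracted the MAPKi counts were 0 lower and 3 higher, HDACi 0 lower, the combination 2 lower and 4 higher, the combination against HDACi 2 lower and 3 higher, and 1 departed upward. Without the dimmest 40%, which removes 4 members, 3 were lower with MAPKi and 0 higher in the combination than in MAPKi. With only the arrays compared, HDACi lowered 1.

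Among members that passed on either scale, some signs turned after quantile normalization. For MAPKi against vehicle these were ADAMTSL4 0.10, COL26A1 0.14, ITGB1BP1 0.013 and ITGB3BP 0.52. For the combination against vehicle they were ADAMTSL2 0.05, ADAMTSL4 0.13, ADAMTSL5 0.33 and COL26A1 0.13. For the combination against HDACi they were ADAMTSL2 0.001, ADAMTSL3 0.44, ADAMTSL5 0.084 and COL26A1 0.013. Comparison genes that turned likewise were P3H2 (0.33) for the combination against vehicle and THBS2 (0.23) for HDACi against vehicle. TGFB1I1 (0.48) and LOXL3 (0.016) did so for the combination against HDACi, and LOXL3 (0.35) for the combination against MAPKi. MMP16 (0.20) did so for MAPKi against HDACi. With array medians subtracted, such turns among the members were, for MAPKi, ADAMTSL1 0.36, ADAMTSL3 0.031, ADAMTSL4 0.21, ADAMTSL5 0.34, COL26A1 0.18 and ITGB3BP 0.41. For the combination they were ADAMTSL1 0.66, ADAMTSL2 0.10, ADAMTSL4 0.365, ADAMTSL5 0.25, COL26A1 0.19 and ITGB1BP2 0.55. For the combination against HDACi they were ADAMTSL1 0.48, ADAMTSL2 0.012, ADAMTSL3 0.57, ADAMTSL4 0.32, ADAMTSL5 0.011 and COL26A1 0.024. Members that passed on neither scale also turned, after quantile normalization 3 for MAPKi, 4 for HDACi, 2 for the combination, 3 for it against MAPKi, 3 against HDACi and 2 in the departure, and with medians subtracted 1, 5, 0, 4, 1 and 2. Both alternatives remove a general shift by construction; the cause of that shift was not tested. Only the arrays compared give no value for the departure and the F-test. No detection call came with the values, and 4 members were dim.

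Leaving out 1 array gave 3 to 6 members lower with MAPKi, 0 to 2 with HDACi, 6 to 7 with the combination, 2 to 3 lower and 1 higher against MAPKi, 5 to 6 lower against HDACi, 0 to 1 departing upward and 1 downward, and 6 to 7 in the F-test. In the 6 planned comparisons the replicate block changed no member's call (5, 2 and 6 lower against vehicle, as without it), nor did trended variance or mean rows. In MAPKi against HDACi, ITGB1BP1 passed with the replicate block (-0.30, adjusted p = 0.041) and with trended variance (0.048), and COL26A1 (-0.32, adjusted p = 0.083) without dim genes (0.04) and with only the arrays compared (0.045); for 9 of 12 arrays the closest deviations were those of arrays sharing their number.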

Other observations

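A further 6 rows matched the prefixes but are not protein-coding, and they were left out of the 9 genes. Their log2 means in vehicle, MAPKi, HDACi and combination arrays were 6.09, 5.32, 5.73 and 5.38 for the pseudogene ADAMTS7P1 and 6.06, 5.51, 5.87 and 5.38 for the antisense RNA COL18A1-AS1. The other antisense RNAs (COL18A1-AS2, COL4A2-AS1, ITGB2-AS1 and ADAMTS9-AS2) ranged from 3.53 to 5.21 over all arrays. No test was made of these rows.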
